A study of Mus musculus with 6 samples.

Results

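The set described here comprised 6 genes, the ligands Ifnb1 (interferon beta) and Ifng (interferon gamma) and the receptor chains Ifnar1, Ifnar2, Ifngr1 and Ifngr2. They were chosen by name from the array annotation, and each was read from the brightest row that named it and no other gene. Each of the 6 had exactly 1 such row, out of 22180 genes that could be read in this way and 41345 rows on the array. The data came from BV-2 cells, a mouse microglial line transformed by a retrovirus carrying raf and myc oncogenes. Of the 6 arrays, 3 held RNA of control cells described as resting and 3 held RNA of cells exposed to lipopolysaccharide (LPS) from Escherichia coli O111:B4, at 1 µg/mL for 24 h. Both groups were of the same line with no engineered allele, and the sources used here do not give the collection time of the control cells. The labels do not say whether the replicates were separate cultures, so each p-value reflects only array-to-array spread, part of which may be technical. An array of a culture gives RNA per sample, so fewer expressing cells and less RNA per cell cannot be told apart.

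Interferon beta is the early type I interferon of macrophages and microglia. Its gene is switched on when Toll-like receptor 4, through the adaptor TRIF and the kinase TBK1, activates IRF3 alongside NF-kappaB, and this transcription is typically brief. The secreted protein binds a receptor of an IFNAR1 and an IFNAR2 chain, whose kinases TYK2 and JAK1 activate transcription factors that include STAT2. With IRF9 these enter the nucleus and turn on antiviral genes through the interferon-stimulated response element (ISRE). Interferon gamma is made mainly by T cells and natural killer cells, and signals through IFNGR1 and IFNGR2 chains, JAK1 and JAK2 to gamma-activated sequences (GAS) in target genes.

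To show which of these genes have letters that such factors are known to bind, the sequences upstream of the gene starts were searched. Below are the 250 bases before the annotated gene start for the 4 genes in which a searched motif was found, from the RefSeq promoter table (GRCm38.p6), which held all 6 genes. Capitals mark matches on either strand to a form of the NF-kappaB site (GGGA and TTCC with 2 free bases between them), to AANNGAAA (the core bound by interferon regulatory factors, IRFs) or to TTCNNNGAA (GAS).
Ifnb1 (chr4:88522795-88523044, minus strand): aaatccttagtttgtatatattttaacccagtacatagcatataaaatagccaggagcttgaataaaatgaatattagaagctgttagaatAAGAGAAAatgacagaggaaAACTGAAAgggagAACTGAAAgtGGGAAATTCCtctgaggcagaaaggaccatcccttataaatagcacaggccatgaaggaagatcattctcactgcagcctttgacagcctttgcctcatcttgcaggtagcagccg
Ifng (chr10:118440796-118441045, plus strand): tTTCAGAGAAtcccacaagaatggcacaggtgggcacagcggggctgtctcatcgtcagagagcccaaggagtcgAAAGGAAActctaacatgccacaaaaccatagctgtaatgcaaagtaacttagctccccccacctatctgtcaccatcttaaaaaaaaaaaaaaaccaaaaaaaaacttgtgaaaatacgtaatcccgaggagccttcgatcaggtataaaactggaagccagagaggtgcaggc
Ifnar2 (chr16:91372533-91372782, plus strand): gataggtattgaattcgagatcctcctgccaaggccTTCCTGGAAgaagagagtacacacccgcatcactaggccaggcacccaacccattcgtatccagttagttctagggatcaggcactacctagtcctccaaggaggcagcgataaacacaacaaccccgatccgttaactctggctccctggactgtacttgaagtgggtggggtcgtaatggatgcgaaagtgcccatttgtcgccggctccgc
Ifngr2 (chr16:91546809-91547058, plus strand): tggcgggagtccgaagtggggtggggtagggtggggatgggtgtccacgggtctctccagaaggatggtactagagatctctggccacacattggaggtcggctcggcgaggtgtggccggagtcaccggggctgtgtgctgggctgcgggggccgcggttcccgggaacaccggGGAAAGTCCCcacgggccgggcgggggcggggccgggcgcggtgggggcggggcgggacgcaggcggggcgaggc

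The Ifnb1 window held 3 IRF cores and, just downstream of the last, 1 NF-kappaB match, GGGAAATTCC, lying 116 to 107 bases before the start. This cluster belongs to the well-known virus-response enhancer of the gene. Over all 32851 promoter windows of this length, 1.21% had the NF-kappaB form and 21.3% had an IRF core. The Ifng window had 1 IRF core and 1 GAS match, TTCAGAGAA, and the Ifnar2 window had 1 GAS match, TTCCTGGAA, a motif found in 7.02% of windows. In the Ifngr2 window the NF-kappaB form occurred once on the opposite strand, as GGAAAGTCCC. The windows of Ifnar1 and Ifngr1 held none of these letters, and no window of the 6 held the longer ISRE form (GAAA and GAAA with 2 free bases between them), which contains the IRF core and was found in 2.98% of all windows. Base composition separated ligands from receptors. The window of Ifnb1 was 39.6% G or C with 1 CpG dinucleotide and that of Ifng 45.2% with 6, against 54.0% with 11 for Ifnar2, 59.2% with 11 for Ifngr1, 65.6% with 19 for Ifnar1 and 74.0% with 25 for Ifngr2, where all windows had medians of 52.4% and 6. These matches describe letters in a window and are not evidence of binding.

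The arrays were similar in median (2.88 to 2.97 on the log2 scale), but control replicate 2 stood apart. Among the 3223 rows with a mean between 7 and 9, the range that holds all 4 receptor chains, it lay a median of 0.57 below the other control arrays. The same rows had a median log2 fold change, LPS over control, of 0.16 with all arrays and -0.02 without that array. The values of the receptor genes are therefore given with and without it. Of 10 microglia and macrophage markers none had a mean within the range of background, with Cd68 at 10.80 and Itgam, the integrin CD11b, at 8.82. Cx3cr1 at 3.70 and Aif1 at 3.97 were only little above that range. Background was taken as the 95th percentile, 3.21, of all values of 1438 rows for olfactory, vomeronasal and taste receptors. By that measure 5 of 5 astrocyte, 4 of 5 neuron and 4 of 4 oligodendrocyte markers were at background. The remaining neuron marker, Rbfox3, had a mean of 3.46.

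The interferon ligands gave no signal above background on any array. Ifnb1 (transcript cluster 17427064) read 2.02, 1.91 and 1.93 in control replicates 1 to 3 and 1.88, 2.02 and 1.81 in LPS replicates 1 to 3, all as log2 expression. The groups overlapped, and the means were 1.95 ± 0.06 and 1.90 ± 0.11 (SD, n = 3 arrays each). The log2 fold change was -0.05 (SE 0.13, 95% interval -0.36 to 0.27, limma adjusted p = 1.00). The mean of Ifnb1 lay at the 54th percentile of the means of the chemosensory receptor rows. A small amount of transcript could not be detected at this signal, and the array gives no level at any time other than the one sampled.

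Ifng (17237589) read 2.11, 2.37 and 2.44 in the controls and 2.52, 2.47 and 2.54 after LPS. All LPS values lay above all controls, but the closest pair was only 0.03 apart. Its log2 fold change was 0.20 (SE 0.14, 95% interval -0.14 to 0.54, adjusted p = 0.98), and its mean stood at the 82.8th percentile of the receptor rows. Both groups sat within the background range, so this is a difference between background signals. Of 12 T cell and natural killer cell markers, which would accompany a usual source of interferon gamma, 11 were at background. The exception was the adhesion receptor Cd2, with a mean of 3.22 and a log2 fold change of -0.83 (adjusted p = 0.75). The log2 of the summed linear level of these 12 markers ranged from 6.15 to 6.42 in controls and from 6.03 to 6.08 after LPS, and the T cell receptor components Cd3e, Cd3g and Cd3d were all at background. Of 6 plasmacytoid dendritic cell markers, a type known for making type I interferon, 5 were at background, the other being the broadly used transcription factor Tcf4.

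**Figure D1:**
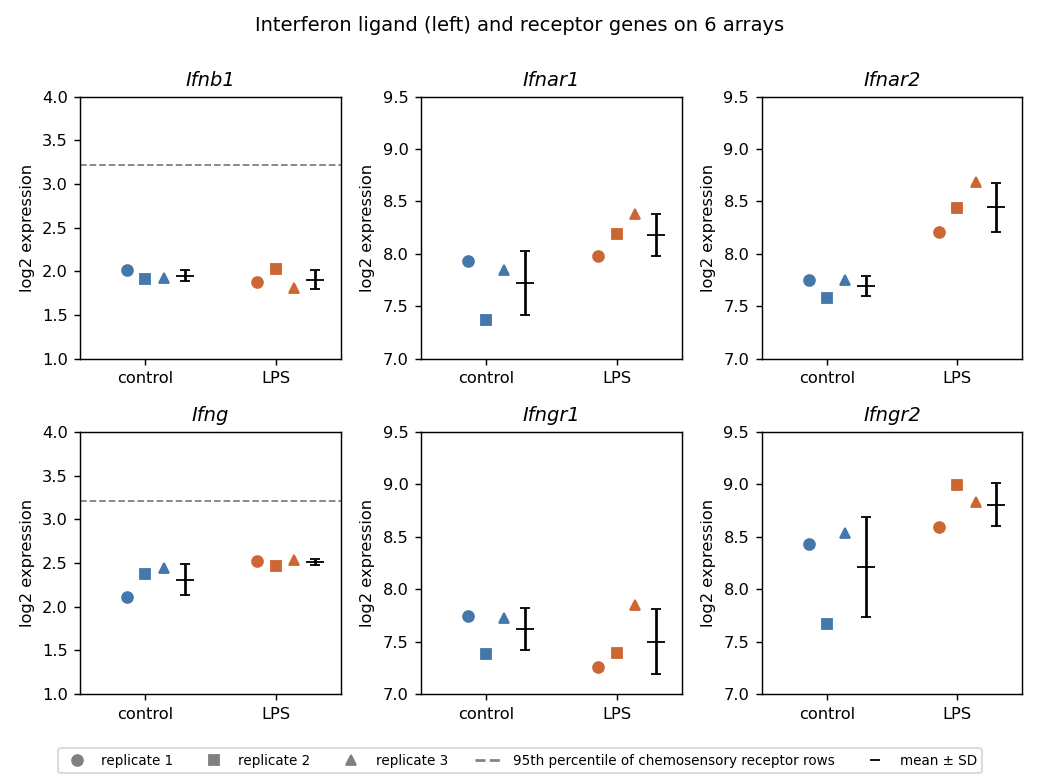
Log2 expression of the 6 genes on each array, in panels for control (blue) and LPS (orange), with symbols for replicates 1 to 3 and bars for the mean ± SD of 3 arrays; the dashed line at 3.21 is the 95th percentile of chemosensory receptor rows, and the axes differ between ligand and receptor panels. Both ligands lie below the dashed line on all 6 arrays, Ifnar2 shows a clear gap between groups, and control replicate 2 is the lowest control in all 4 receptor panels.

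All 4 receptor chains were well above background in resting and LPS cells. Of the 6 genes 0 passed adjusted p under 0.05 in limma, and 1, Ifnar2, had an unadjusted p under 0.05. Of all rows, 0.193% were called higher and 0% lower, and at an unadjusted p under 0.05 4.98% were higher and 1.4% lower. LPS arrays lay wholly above control arrays for 4 of the 6 genes, Ifng, Ifnar1, Ifnar2 and Ifngr2, which was the case for 7.74% of all rows, and wholly below for 0 of 6, against 3.48%. The median log2 fold change of the 6 was 0.33, beside 0.03 over all rows. At the level of the 4 receptor chains, a mean between 7 and 9, the median over rows was 0.16, or -0.02 without control replicate 2.

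Ifnar2 (17327038), which codes for the high-affinity ligand-binding chain of the type I receptor, read 7.75, 7.58 and 7.75 in controls and 8.21, 8.44 and 8.68 after LPS. The lowest LPS array stood 0.46 above the highest control, and control replicate 2 was only 0.17 below the other controls. Means were 7.69 ± 0.10 and 8.44 ± 0.24 (SD, n = 3). The log2 fold change was 0.75 (SE 0.17, 95% interval 0.36 to 1.15), or 1.68-fold. This difference exceeded the spread between arrays (limma unadjusted p = 0.0030) but with adjustment over the 41345 rows it missed the threshold (adjusted p = 0.31). It was 0.69 without control replicate 2 and 0.57 without both that array and LPS replicate 3.

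Ifnar1 (17327069), the other chain of this receptor, which associates with TYK2, read 7.94, 7.37 and 7.85 in controls and 7.97, 8.19 and 8.38 after LPS. The gap between groups was 0.04, since LPS replicate 1 and control replicate 1 were close. The log2 fold change of 0.46 (SE 0.20, 95% interval -0.02 to 0.95, adjusted p = 0.82) was 0.29 without control replicate 2, which lay 0.53 below the other controls, and 0.19 without LPS replicate 3 as well. The change of Ifnar2 was larger than that of Ifnar1 by 0.29 log2 units. Within each array the value of Ifnar2 minus that of Ifnar1 ranged from -0.19 to 0.21 in controls and from 0.24 to 0.30 after LPS. A two-sided exact permutation test gave p = 0.10, the smallest that 3 against 3 arrays allow. Control replicate 2 had the highest control value, 0.21. Without that array the change of Ifnar2 was larger than that of Ifnar1 by 0.41 (two-sided exact permutation test, p = 0.10).

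Ifngr2 (17327084), the signal-transducing chain of the type II receptor that carries JAK2, read 8.43, 7.67 and 8.54 in controls and 8.59, 8.999 and 8.83 after LPS. The groups were separated by 0.05, and control replicate 2 was 0.81 below the other controls. The log2 fold change was 0.59 (SE 0.26, 95% interval -0.02 to 1.21, adjusted p = 0.82), and 0.32 without control replicate 2.

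Ifngr1 (17231859), the chain that binds interferon gamma, read 7.74, 7.38 and 7.72 in controls and 7.26, 7.40 and 7.85 after LPS. These values overlapped, with the lowest and the highest array both in the LPS group. The log2 fold change was -0.12 (SE 0.20, 95% interval -0.60 to 0.37, adjusted p = 1.00), -0.23 without control replicate 2 and -0.41 with LPS replicate 3 left out too. The difference between Ifngr2 and Ifngr1 was 0.69, 0.28 and 0.82 in control replicates 1 to 3 and 1.34, 1.60 and 0.98 after LPS, so the log2 fold change of Ifngr2 exceeded that of Ifngr1 by 0.71 (two-sided exact permutation test, p = 0.10, again the smallest possible). Without control replicate 2 the log2 fold change of Ifngr2 exceeded that of Ifngr1 by 0.55 (two-sided exact permutation test, p = 0.20). Such within-array differences can show unequal change of the paired chains, but not which chain changed. With all arrays and Benjamini-Hochberg adjustment over these 2 chain comparisons, both exact permutation p-values stayed at 0.10.

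**Figure D2:**
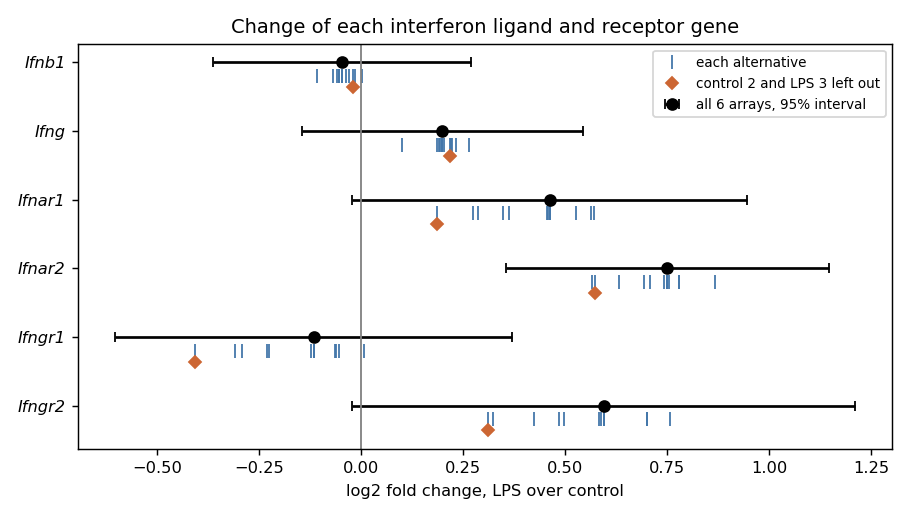
Log2 fold change, LPS over control, of each gene with its 95% interval from limma (black), the value under each alternative (blue ticks) and the value with control replicate 2 and LPS replicate 3 left out (orange diamonds). The interval lies wholly above 0 for Ifnar2 alone; Ifnar1 and Ifngr2 move toward 0 and Ifngr1 to -0.41 once these arrays are left out.

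LPS replicate 3 was the highest LPS array for Ifnar1, Ifnar2 and Ifngr1, by 0.30, 0.36 and 0.53 over the mean of the other LPS arrays, but not for Ifngr2, with 0.03. Rows with a mean between 7 and 9 had a median of 0.02 for the same difference. The part of this array in the receptor changes was measured by leaving it out: the log2 fold change was then 0.36 for Ifnar1, 0.63 for Ifnar2, -0.29 for Ifngr1 and 0.58 for Ifngr2.

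The type I chains, Ifngr2 and the interleukin 10 receptor chain Il10rb are neighbours in the mouse genome. In the RefSeq order on chromosome 16 the protein-coding genes run Olig2, Olig1, Ifnar2, Il10rb, Ifnar1, Ifngr2, Tmem50b and Dnajc28. Il10rb, a chain shared by the receptors of interleukin 10, interleukin 22 and interferon lambda, read 8.37, 7.92 and 8.24 in controls and 8.36, 8.62 and 8.91 after LPS. Its log2 fold change of 0.45 (SE 0.20, adjusted p = 0.83) was 0.33 without control replicate 2. The 4 genes from Ifnar2 to Ifngr2 had values between 0.45 and 0.75, or 0.29 to 0.69 without control replicate 2, and 0 of the 4 passed the test. Of the 3223 rows with a mean between 7 and 9, 74.1% were above 0, and nothing particular to these neighbours is read from their shared sign. The flanking Tmem50b had 0.37 (adjusted p = 0.96), 0.29 without control replicate 2 and 0.115 without LPS replicate 3. Without both arrays Tmem50b had 0.03, Ifnar2 0.57, Il10rb 0.18, Ifnar1 0.19 and Ifngr2 0.31. The oligodendrocyte factors Olig1 and Olig2 were at background. Ifngr1 lies apart, on chromosome 10, next to Olig3 and Il22ra2, both at background. The next gene beyond Olig3 is Tnfaip3, the NF-kappaB inhibitor A20, which rose by 2.39 (SE 0.28, adjusted p = 0.046) while Ifngr1 had -0.12. Ifnb1 on chromosome 4 is flanked by Hacd4 (0.24, adjusted p = 1.00) and the interferon alpha gene Ifna15, which was at background. Ifng, also on chromosome 10, lies beside Iltifb, at background, and the kinase gene Dyrk2 (0.50, adjusted p = 0.72).

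**Figure D3:**
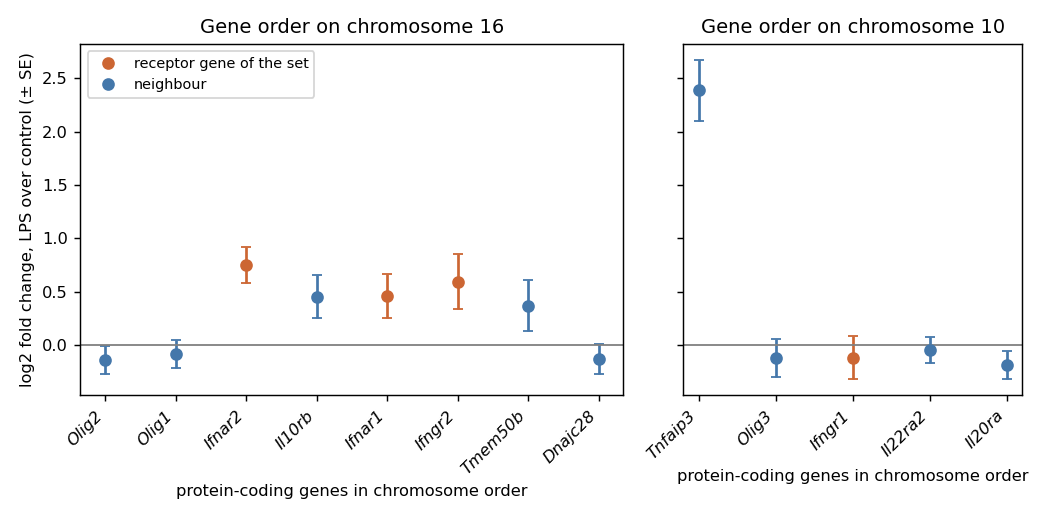
Log2 fold change, LPS over control (± SE), of receptor genes (orange) and their neighbours (blue), in chromosome order and not to distance. Ifnar2, Il10rb, Ifnar1 and Ifngr2 lie between 0.45 and 0.75 on chromosome 16 with all arrays, Tmem50b at 0.37 is 0.03 without control replicate 2 and LPS replicate 3, and Tnfaip3, 2 genes from Ifngr1 on chromosome 10, is the 1 called gene shown.

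The genes that lead to Ifnb1 were above background in their means. Of 17 listed genes for sensing LPS and building the Ifnb1 transcription complex, 14 had a row, 2 rose, 0 fell and 12 did not pass. Over all rows 0.193% were called higher and 0% lower. The kinase Ikbke (IKK epsilon), a relative of TBK1, rose by 2.17 (SE 0.22, adjusted p = 0.030), from 5.84, 5.18 and 5.64 to 7.55, 8.01 and 7.61. The LPS co-receptor Cd14 rose by 1.41 (SE 0.17, adjusted p = 0.046). Of the 6 fits without 1 array, both calls were kept without control replicate 2 and lost in the other 5. Over 17 settings, the main fit included, Ikbke was called in 10 and Cd14 in 6. Quantile normalization and median centring were among those in which the call of Cd14 ended. Chosen after their values were seen, Irf7, an interferon-inducible amplifier of type I interferon transcription, had 3.20 (SE 0.45, adjusted p = 0.088), and Irf3, which acts first, had -0.19 (adjusted p = 1.00). The list median was 0.38, or 0.19 without control replicate 2 and likewise after quantile normalization.

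No other interferon gene passed the test. Of 19 listed alpha, epsilon, kappa, zeta and lambda interferon genes 17 had a row of their own, and 11 of these were at background. At an unadjusted p under 0.05, 0 were higher and 0 lower in limma. The brightest, Ifna4, read 5.49, 5.67 and 5.57 in controls and 5.48, 5.05 and 6.40 after LPS (log2 fold change 0.07, adjusted p = 1.00), and Ifnl2 had -0.06. Interferon alpha genes are near-identical copies, so signal of one may come from another, and their values are uncertain. Among 8 other class II cytokine receptor genes 0 passed and 1 was higher at an unadjusted p under 0.05, against 4.98% of all rows. Besides Il10rb, the interleukin 10 receptor chain Il10ra had -0.08 (adjusted p = 1.00), and 5 of the 8 were at background.

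Downstream of the receptors, 5 signalling genes were analysed. None passed over all rows in limma. At an unadjusted p under 0.05, 4 of 5 were higher and 0 lower, against 4.98% and 1.4% of all rows. The kinase Jak2 read 6.58, 5.06 and 6.10 in controls and 8.20, 8.42 and 8.02 after LPS, or 2.30 higher (SE 0.38, adjusted p = 0.14). Tyk2 had 1.07 (SE 0.24, adjusted p = 0.32) and Jak1, used by both receptors, 0.42 (SE 0.28, adjusted p = 0.96). The STAT partner Stat2 had 1.69 (SE 0.58, adjusted p = 0.64) and Irf9 1.44 (SE 0.38, adjusted p = 0.42), and both were highest in LPS replicate 3, at 7.34 and 7.01 against 5.06 and 5.28, and 5.72 and 5.64. Of 8 feedback genes 0 passed. At an unadjusted p under 0.05, 4 of these were higher and 0 lower, against 4.98% and 1.4% of all rows. The phosphatase Ptpn6 (SHP-1) had -0.03 and the STAT inhibitor Pias1 0.02 (both adjusted p = 1.00). Usp18, which binds IFNAR2 and dampens its signal, was chosen after its values were seen. It read 4.13, 3.50 and 3.88 in controls and 6.47, 6.72 and 8.59 after LPS (log2 fold change 3.43, SE 0.55, adjusted p = 0.13), and passed without LPS replicate 3.

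Of 21 listed targets of the type I receptor 19 had a row, 7 rose, 0 fell and 12 did not pass, while Ifnb1 was at background. Each of the 19 had a log2 fold change above 0, with a median of 2.45, and 18 of the 19 had every LPS array above every control. Over all rows 55.8% were above 0, 7.74% had every LPS array above every control and 0.193% were called higher. The antiviral enzyme Rsad2 (viperin) read 4.31, 4.50 and 4.61 in controls and 9.49, 9.68 and 10.34 after LPS, a rise of 5.36 (SE 0.24, adjusted p = 0.0012). Its neighbour Cmpk2, a mitochondrial nucleotide kinase, rose by 5.04 (SE 0.55, adjusted p = 0.037), and Oasl2, of the oligoadenylate synthetase family, by 3.72 (SE 0.44, adjusted p = 0.044). The rise of 3.47 in Rtp4 (SE 0.32, adjusted p = 0.020) started from a control mean of 3.00, which is within background. Cmpk2 read 2.84, 3.78 and 3.17 in control replicates 1 to 3, of which replicates 1 and 3 were also within background. LPS replicate 3 was the highest LPS array for 19 of 19 genes, by a median of 1.52. Without LPS replicate 3 the test called 12 of the 19, against 1 without control replicate 1, control replicate 3 or LPS replicate 2, and 2 without control replicate 2 or LPS replicate 1. In these fits the list median stayed between 2.10 and 2.78. These targets were known to move in this series before the list was written, and they are given as a description beside the ligand.

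**Figure D4:**
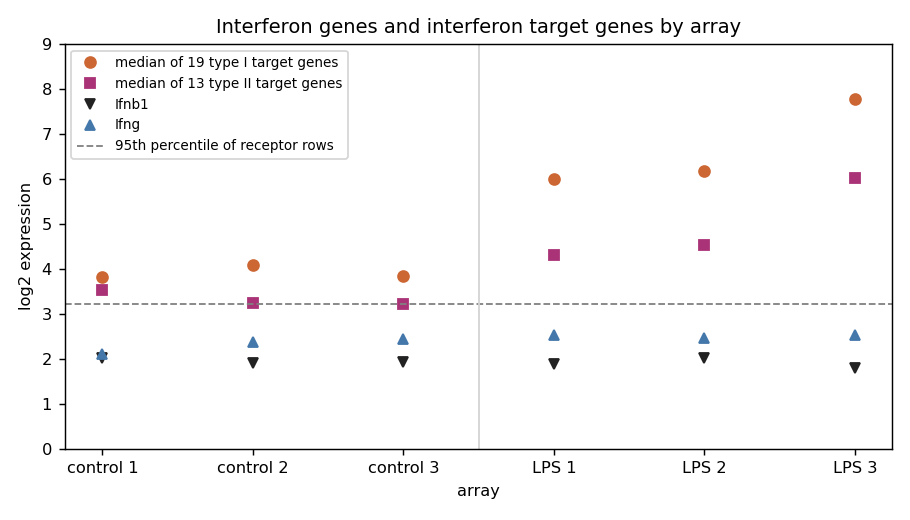
Log2 expression on each array of Ifnb1 and Ifng and the medians of 19 type I and 13 type II target genes, with the dashed line at the 95th percentile of chemosensory receptor rows (3.21). Medians of type I targets go from 3.82 to 4.08 in controls to 5.99, 6.19 and 7.77 after LPS, while both ligands stay under the line.

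Genes usually read as targets of interferon gamma were split. Of 15 listed 13 had a row, 1 rose, 0 fell and 12 did not pass, and at an unadjusted p under 0.05 6 were higher and 0 lower. Over all rows 0.193% were called higher, and 4.98% were higher and 1.4% lower at that unadjusted threshold. The list median was 1.12, or 0.57 without LPS replicate 3. The guanylate-binding protein Gbp3 rose by 3.07 (SE 0.31, adjusted p = 0.030), from a control mean of 3.20, within background, to 6.27, a call lost in each fit without 1 array except that without LPS replicate 3. Among those that did not pass, and also chosen after their values were seen, were the inducible nitric oxide synthase Nos2 with 3.17 (adjusted p = 0.079) and Cd274, the checkpoint ligand PD-L1, with 2.35 (adjusted p = 0.29). The guanylate-binding protein Gbp5 had 2.04 (adjusted p = 0.36) and the transcription factor Irf1 1.12 (adjusted p = 0.10). Named in the same way, the chemokine Cxcl9 and the class II transactivator Ciita, both strongly tied to interferon gamma, were at background in both groups. Cxcl9 read 2.27, 2.10 and 2.03 in controls and 2.37, 2.35 and 2.18 after LPS, and Ciita 2.82, 2.62 and 2.69 against 2.49, 2.55 and 2.35. Several of these genes also respond to type I interferon or NF-kappaB, so the list does not single out 1 ligand.

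**Figure D5:**
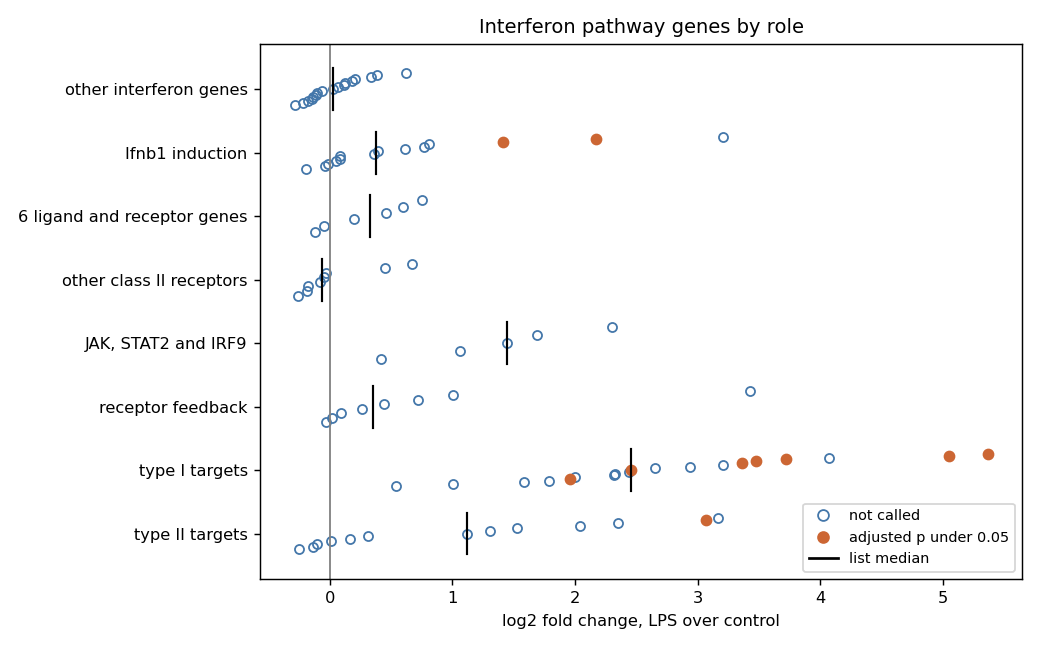
Log2 fold change, LPS over control, of each pathway gene with a row, grouped by role, with filled orange points for adjusted p under 0.05 in limma and black bars for list medians. Called genes are 2 in Ifnb1 induction, 7 type I targets and 1 type II target, and 0 of the 6 ligand and receptor genes; the list medians run from -0.06 for other class II receptors to 2.45 for type I targets.

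The genes whose 6 values moved most like those of each receptor chain were found by the root-mean-square (RMS) difference of log2 values after each gene's own mean was removed, over 6 arrays and 22174 genes. This was done for Ifnar1, Ifnar2 and Ifngr2, whose values spanned more than 1 log2 unit. Nearest to Ifnar2 were Ubr4, Acsl5, Phlda1, Tmbim4 and Zfp462, with RMS differences of 0.06 each. The acyl-CoA synthetase Acsl5, for example, read 7.29, 7.27 and 7.26 in controls and 7.79, 8.06 and 8.29 after LPS, with the same order of LPS arrays as Ifnar2. Nearest to Ifnar1 were Samhd1, Coq7, Sec23b, Mcts2 and Atp6v1h, at 0.04 to 0.06. The nucleotide phosphohydrolase Samhd1 read 8.87, 8.21 and 8.80 in controls and 8.92, 9.10 and 9.26 after LPS, with the dip of control replicate 2 that Ifnar1 also had. Nearest to Ifngr2 were Plgrkt, Ndufaf3, Fars2, Sel1l3 and Dip2a, at 0.05 to 0.07, and each of these also had its lowest value in control replicate 2. Among the 6 genes themselves, Ifnar1 and Ifngr2 were the closest pair, at 0.17, followed by Ifnar1 and Ifnar2 at 0.19. With so many genes and only 6 arrays, close profiles are found for any gene, and they are a description of these arrays.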

How the data were processed

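The authors deposited a table of log2 expression, with 1 value for each transcript cluster and array, and the submitters' processing notes name Affymetrix Expression Console; background correction, normalization and genome build are not given in the sources used here. Low signals may be compressed on this scale. Rows were named from the platform annotation (23521 of 41345 with 1 symbol) and list genes also by RefSeq synonyms. LPS was compared with control in limma 3.58.1 (lmFit and eBayes, R 4.3.3) over all rows, with no filter. P-values were adjusted by Benjamini-Hochberg over all rows, and adjusted p under 0.05 was called. The fit was tested on simulated data with independent noise for each row and array. Those data held no shift of a whole array like that of control replicate 2. Errors are moderated SE for fold changes and SD for means.

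The 6 genes, the lists and the tests were chosen with earlier results of these data known. From each list the text names up to 4 called genes with the largest change or, where none was called, the 2 with the highest mean, all signalling genes, neighbours of the 6 genes and the 5 genes most like each receptor chain, except where a choice after seeing values is stated. The arrays' number limits precision.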

Additional observations from a re-analysis of the deposited data

How the results depend on the processing

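Of 112 values of the 6 fold changes and the 2 chain differences under the alternatives, 110 kept their direction. The fold changes all kept their side of the threshold. The chain differences were compared by direction alone, since their exact p cannot go under 0.10. The 2 exceptions lay near 0: Ifnb1 became 0.0012 without LPS replicate 3, and Ifngr1 became 0.0070 without LPS replicate 1. With 1 array left out, Ifnb1 ranged from -0.11 to 0.0012, Ifng from 0.10 to 0.27, Ifnar1 from 0.29 to 0.57, Ifnar2 from 0.63 to 0.87, Ifngr1 from -0.29 to 0.0070 and Ifngr2 from 0.32 to 0.76. Quantile normalization gave 0.27 for Ifnar1, 0.57 for Ifnar2, -0.31 for Ifngr1 and 0.42 for Ifngr2. The number of the 6 genes called was 0 under each of the 16 alternatives in limma. Over all rows, calls of higher rows numbered 80, or 1 in the unmoderated fit, 132 with array weights, 152 once control replicate 2 and LPS replicate 3 were dropped together, and 15 to 76 with 1 array left out. Lower rows numbered 0, or 67 with that pair dropped and 0 to 14 with 1 array left out. The cause of these shifts was not tested. With the replicate number as a block 7 rows were higher. Deviations of same-numbered arrays from their group means correlated at 0.07, -0.26 and -0.22, and those of unlike-numbered arrays at -0.14 to 0.27. With 3 arrays per group these values cannot settle whether the numbers pair the arrays, and the labels do not say. The chain differences in the block were unchanged in size, 0.29 and 0.71, with exact sign-flip p = 0.25, the smallest 3 differences allow. Ifnb1 and Ifng had no value in the fit without dim rows, since both were below 3.21 on all arrays. An average over several rows of a gene was not run, since each of the 6 had 1 row. Signals near background limit what can be said of both ligands.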
